A study of Mus musculus with 28 samples.

Results

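RNA on tagged ribosomes of leptin receptor cells was compared with the RNA left behind in the hypothalamus of wild-type mice, 10 h after an injection. All mice of the study carried LepRbeGFP-L10a, a reporter that puts eGFP-tagged ribosomal protein L10a into cells that express LepRb, the long isoform of the leptin receptor. The driver of the reporter is not named in the sources used here. Antibodies against eGFP pulled tagged ribosomes onto beads (bead RNA), and the supernatant of the same lysate gave the depleted RNA. The animals were males and females, 10 to 13 weeks of age, whose food was taken away at lights-on. They then received metreleptin, a recombinant form of leptin, at 5 mg per kg into the abdomen, or vehicle, which the treatment labels name as PBS and the protocol as saline. Libraries were chosen by their labels for genotype, time and fraction: 8 of the 28 libraries of the study, from 4 of its 14 lysates. Each lysate gave 1 bead and 1 depleted library, and 3 lysates came from leptin-treated and 1 from vehicle-treated mice. The sources do not tell how many mice went into 1 lysate, so p-values measure only the spread between these lysates.

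Leptin is secreted by fat tissue and reports energy stores to the brain. LepRb signals through the kinase JAK2 and the transcription factor STAT3, and the neurons that carry it lie mainly in the arcuate, dorsomedial, ventromedial, premammillary and lateral hypothalamus. Among them are arcuate neurons that make AgRP and NPY, which promote feeding, and arcuate neurons that make POMC, which restrains it. Translating ribosome affinity purification reads the RNA of such cells without sorting them. Bead RNA is enriched for RNA bound to ribosomes of tagged cells, and can hold RNA of other cells. Depleted RNA is what the beads left in the lysate. It holds RNA of all other cells, RNA of tagged cells that was not captured, and transcripts that no ribosome carries. In such a comparison, binding to ribosomes and cell type cannot be told apart, and in bulk samples fewer cells of a type and less RNA per cell cannot be told apart either.

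Total counts ranged from 23567997 to 42267040 reads per bead library and from 27527324 to 41804049 reads per depleted library, a depth that bears on counting error only. A pair of bead libraries stood apart. In that of the vehicle lysate, 0.108% of reads came from mitochondrially encoded genes, against 0.0177%, 0.0242% and 0.0254% in the beads of the leptin lysates and 0.935% to 1.13% in depleted RNA. In the beads of leptin lysate 3, GC-rich transcripts were over-represented, as given with the transcript classes. The vehicle group is 1 lysate, so its difference from the leptin lysates has no test here. All 8 libraries were in 1 sequencing run, and wild-type mice at 3 h and ob/ob mice were sequenced in other runs. Levels are CPM (counts per 1e6 counts of a library), scaled by the trimmed mean of M-values (TMM), and per-sample values are listed in the order leptin lysate 1, 2 and 3, then the vehicle lysate. Fold changes are bead over depleted within lysates, with adjusted p-values from the edgeR quasi-likelihood test with Benjamini-Hochberg adjustment over all genes, n = 4 lysates.

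Of 18568 genes tested, 12958 (69.8%) passed an adjusted p of 0.05. In beads 6340 genes (34.1%) were higher and 6618 (35.6%) lower, and the median log2 fold change of all genes tested was -0.01. A difference of at least 2-fold was found for 1017 higher genes (5.48%) and 3328 lower genes (17.9%). All 4 bead libraries lay above all 4 depleted libraries for 5665 genes (30.5%) and below them for 5908 (31.8%). Most genes thus passed the test in one direction or the other, and a list of genes says little unless its share or its size of change departs from these figures. Scaling to library totals alone moved the median of all genes to -0.22 and the share of higher genes among those that passed from 48.9% to 34.6%, with 584 genes at least 2-fold higher. Small rises are relative to that choice.

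**Figure D1:**
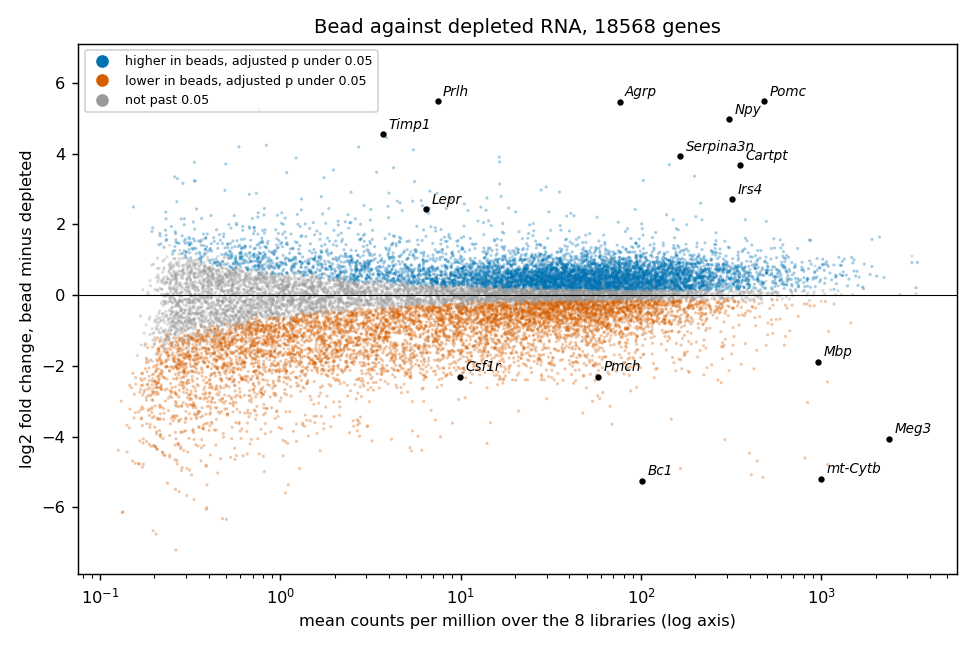
Log2 fold change of bead over depleted RNA (vertical axis) against the mean level over the 8 libraries in CPM (horizontal log axis) for 18568 genes. Blue points are higher and orange points lower in beads at an adjusted p under 0.05, grey points did not pass, and black points are labelled genes. The feeding peptide genes Pomc, Agrp, Npy and Prlh lie near 5, and the mitochondrial gene mt-Cytb near -5.

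Among genes averaging 1 CPM or more whose difference had 1 sign in every lysate, the 20 largest rises were led by feeding peptide genes: Prlh (5.49), Pomc (5.49), Agrp (5.47) and Npy (4.97) on the log2 scale. Of the 20, 17 were coding genes and 2 were lincRNAs. Transcription factors of the mediobasal hypothalamus and pituitary lineage were among them: Tbx19 (4.11), Gsx1 (3.898) and Cited1 (3.69), a transcriptional co-regulator. Tbx3os2, a noncoding gene next to Tbx3, rose by 3.598, and Klf14, a zinc finger factor, by 3.32. The others included Cartpt (3.67), the metalloproteinase inhibitor Timp1 (4.55), the cornified envelope gene Sprr1a (3.88), the keratin gene Krt90 (3.76) and the ubiquitin ligase adaptor Asb4 (3.36). A further 5 were serpin genes of the Serpina3 cluster on chromosome 12: Serpina3h (4.45), Serpina3i (4.18), Serpina3n (3.93), Serpina3f (3.54) and Serpina3m (3.47). These paralogs share sequence, so how their reads divide among them is uncertain. Sprr1a, at 2.37, 4.07, 2.14 and 0.598 CPM in beads against 0.136, 0.220, 0.112 and 0.121 CPM in depleted RNA, was lower in the vehicle beads than in any leptin beads, and all beads lay above the depleted libraries.

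Lepr itself (ENSMUSG00000057722; chromosome 4, 101717404 to 101815352; GRCm38 coordinates from GENCODE, here and below) was at 9.19, 10.6, 12.3 and 11.5 CPM in beads against 1.88, 2.28, 1.82 and 2.11 CPM in depleted RNA. No bead library overlapped a depleted one, at a difference of 5.39-fold (log2 fold change 2.43, SE 0.130, adjusted p = 6.13e-07). The count takes in all isoforms of the receptor, so LepRb is not separated from the short ones. The level of Lepr was low in either fraction, at 1.54 RPKM (CPM per kilobase of exon) in beads and 0.287 RPKM in depleted RNA.

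Of 18 genes of leptin receptor signalling 11 were higher in beads and 3 lower, with a median of 0.44 against -0.01 for all genes tested. Irs4, an insulin receptor substrate adaptor, was at 551, 565, 636 and 476 CPM in beads against 87.7, 82.6, 101 and 70.3 CPM in depleted RNA, the largest rise of the list (log2 fold change 2.71, SE 0.0545, adjusted p = 5.85e-09). Stat3, the transcription factor that LepRb activates, was at 252, 261, 319.7 and 178 CPM in beads against 66.97, 69.2, 75.5 and 65.3 CPM in depleted RNA (log2 fold change 1.84, SE 0.0953, adjusted p = 7.15e-07). Its gene overlaps Stat5a on the other strand, and the libraries do not mark the strand, so reads of the shared part cannot be assigned. Socs3, the feedback inhibitor that STAT3 induces, was at 18.7, 15.9, 29.9 and 7.83 CPM in beads against 3.17, 2.59, 3.18 and 2.38 CPM in depleted RNA (log2 fold change 2.58, SE 0.210, adjusted p = 9.52e-06). In the vehicle lysate its bead level was lower than in every leptin lysate, and still above all depleted libraries. Smaller rises were those of Stat5a (0.96), Stat5b (0.47), the adaptor Grb2 (0.63), the cytokine feedback genes Socs1 (0.87) and Cish (0.49) and Irs2 (0.41). In the opposite direction, Irs1 was at 6.69, 5.48, 5.72 and 6.15 CPM in beads against 10.6, 9.97, 10.3 and 8.13 CPM in depleted RNA (log2 fold change -0.69, SE 0.112, adjusted p = 0.000397). The phosphoinositide 3-kinase subunit genes Pik3r1 (-0.38) and Pik3ca (-0.31) were lower as well. Among the 4 that did not pass was Jak2, the kinase bound to the receptor, with 42.4 to 53.5 CPM in beads and 50.2 to 54.6 CPM in depleted RNA. With scaling to library totals alone, 6 genes of the list were lower.

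The genes of arcuate AgRP/NPY neurons were higher in beads in 7 of 8 cases and lower in none, with a median of 1.97. Agrp codes for agouti-related peptide, which blocks melanocortin receptors (ENSMUSG00000005705; chromosome 8, 105566698 to 105637393). It was at 123, 143, 163 and 167 CPM in beads against 2.900, 3.17, 4.44 and 2.92 CPM in depleted RNA, a 44.3-fold difference with no overlap (log2 fold change 5.47, SE 0.103, adjusted p = 4.23e-09). Its gene model overlaps Ctcf and Ripor1 on the other strand, so reads of the shared stretches cannot be assigned. Npy, which codes for neuropeptide Y (ENSMUSG00000029819; chromosome 6, 49822710 to 49829507), was at 583, 584, 631 and 589 CPM in beads against 16.5, 18.5, 19.4 and 21.7 CPM in depleted RNA. The 4 bead libraries were within a narrow range, and the gene was 31.4-fold higher (log2 fold change 4.97, SE 0.0767, adjusted p = 1.98e-09). Asb4, mentioned above, was at 394, 394, 376 and 279.5 CPM in beads against 37.01, 33.3, 41.7 and 28.5 CPM in depleted RNA, lowest in the vehicle beads. Ghsr, the receptor of the hunger hormone ghrelin, was at 10.02, 10.9, 12.3 and 12.4 CPM in beads against 3.21, 2.51, 3.34 and 3.13 CPM in depleted RNA (log2 fold change 1.90, SE 0.116, adjusted p = 1.05e-06). Corin (2.03), a protease that processes natriuretic peptides, the NPY receptor gene Npy1r (1.27) and the activin receptor gene Acvr1c (0.79) rose too.

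All 8 genes of POMC/CART neurons were higher in beads, each at least 2-fold, with a median of 2.72. Pomc, the precursor of alpha-MSH and beta-endorphin (ENSMUSG00000020660; chromosome 12, 3954951 to 3960642), was at 833, 926, 1252 and 742 CPM in beads against 22.99, 19.8, 24.04 and 16.3 CPM in depleted RNA. The highest bead value was that of leptin lysate 3 and the lowest that of the vehicle lysate, and the groups were far apart at 44.8-fold (log2 fold change 5.49, SE 0.0937, adjusted p = 2.79e-09). Cartpt, which codes for the CART peptide (ENSMUSG00000021647; chromosome 13, 99898489 to 99901091), was at 676, 625, 735 and 578 CPM in beads against 51.3, 46.1, 50.8 and 56.6 CPM in depleted RNA (log2 fold change 3.67, SE 0.0870, adjusted p = 1.45e-08). Cited1, the co-regulator named above and a member of this list, rose by 3.69. The transcription factors of the list rose by less. Tbx3 was at 50.4, 49.8, 68.3 and 44.1 CPM in beads against 7.71, 5.699, 7.64 and 4.67 CPM in depleted RNA (log2 fold change 3.06, SE 0.0974, adjusted p = 7.89e-08). Prdm12, which Pomc expression requires, was at 17.2, 16.5, 25.3 and 14.9 CPM in beads against 3.65, 3.47, 3.29 and 3.495 CPM in depleted RNA (log2 fold change 2.39, SE 0.144, adjusted p = 9.93e-07). Isl1 (1.53), Nhlh2 (1.05) and Nkx2-1 (1.02), factors active in many hypothalamic cells, rose least.

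Per length, the order of these peptide genes in beads was Npy (1054 RPKM), Pomc (712 RPKM), Cartpt (512 RPKM), Nts (149 RPKM), Agrp (147 RPKM), Tac1 (108 RPKM) and Prlh (52.7 RPKM). On this scale the bead libraries of Nts and Agrp overlapped, and those of Npy, Pomc and Cartpt did so only between Pomc and Cartpt. In depleted RNA the order was Cartpt (40.1 RPKM), Npy (33.6 RPKM), Tac1 (18.2 RPKM), Nts (15.9 RPKM), Pomc (15.8 RPKM), Agrp (3.31 RPKM) and Prlh (1.18 RPKM).

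**Figure D2:**
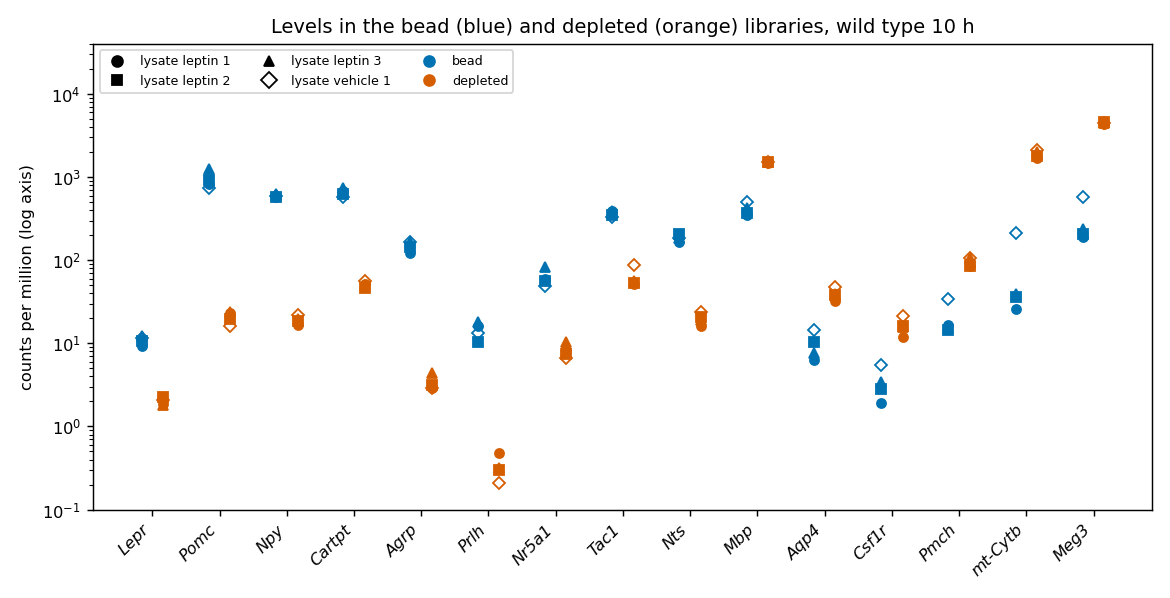
Level in CPM (log axis) of 15 genes in the 4 bead (blue) and 4 depleted (orange) libraries, with a symbol for each lysate and an open diamond for the vehicle lysate. The 9 genes from Lepr to Nts lie higher in beads, and the glial genes Mbp, Aqp4 and Csf1r, the peptide gene Pmch, mt-Cytb and Meg3 lie lower, with the vehicle beads highest among beads for each of these 6.

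The 250 bases before the start of Pomc and Npy are printed because these genes had the highest bead levels per length (RPKM) of the peptide genes above. Both were higher in beads than in depleted RNA. TATAAA, the core of the TATA box, was searched on both strands, with matches in capitals. Sequences are from RefSeq, build GRCm38.p6, on the strand of the gene: chr12:3954695-3954944 (+) for Pomc and chr6:49822460-49822709 (+) for Npy.
Pomc: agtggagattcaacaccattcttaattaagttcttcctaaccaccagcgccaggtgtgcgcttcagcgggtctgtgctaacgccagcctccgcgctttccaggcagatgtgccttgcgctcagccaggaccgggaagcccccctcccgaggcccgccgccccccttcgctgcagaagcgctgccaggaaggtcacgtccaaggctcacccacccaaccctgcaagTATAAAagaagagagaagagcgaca
Npy: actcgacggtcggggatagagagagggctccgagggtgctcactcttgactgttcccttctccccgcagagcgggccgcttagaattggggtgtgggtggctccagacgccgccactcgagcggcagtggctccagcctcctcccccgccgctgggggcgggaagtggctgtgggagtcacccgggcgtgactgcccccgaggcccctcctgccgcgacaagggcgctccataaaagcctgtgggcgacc
The motif stands in Pomc with its first base at -25, counted from the start, and these letters are not in the window of Npy. Over 32851 promoters of the table, 12.4% hold it. Of the 20 genes with the largest rise 15 have a promoter in the table, and 4 of these hold it in at least 1 promoter. Some of these genes have several promoters, so this count per gene and the share per promoter are unlike measures.

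Genes of growth hormone-releasing and other arcuate GABA neurons gave 5 higher and 1 lower of 8, with a median of 0.59. Ghrh, which codes for growth hormone-releasing hormone, was at 25.6, 34.00, 24.3 and 34.3 CPM in beads against 3.38, 3.14, 4.302 and 2.47 CPM in depleted RNA (log2 fold change 3.14, SE 0.195, adjusted p = 2.98e-06). Gsx1, a homeobox factor needed for GHRH neurons, was at 24.1, 26.6, 48.97 and 23.2 CPM in beads against 1.94, 2.01, 2.08 and 1.99 CPM in depleted RNA, highest in the beads of leptin lysate 3 (log2 fold change 3.90, SE 0.165, adjusted p = 3.12e-07). Gal, which codes for galanin, was at 86.2, 104, 111 and 75.04 CPM in beads against 18.6, 18.8, 23.1 and 20.5 CPM in depleted RNA (log2 fold change 2.20, SE 0.0914, adjusted p = 2.45e-07). The interneuron factors Dlx1 (0.53) and Dlx2 (0.65) rose by less.

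In the dorsomedial list 5 of 6 genes were higher and 1 lower, with a median of 1.55. Prlh codes for prolactin-releasing peptide, made by dorsomedial neurons (ENSMUSG00000090550; chromosome 1, 90953108 to 90954027). It was at 16.4, 10.4, 18.2 and 13.2 CPM in beads against 0.478, 0.303, 0.314 and 0.211 CPM in depleted RNA, with every depleted library under 0.5 CPM (log2 fold change 5.49, SE 0.174, adjusted p = 7.89e-08). Grp, which codes for gastrin-releasing peptide, rose by 1.94 on the log2 scale, the GLP-1 receptor gene Glp1r by 1.55, the orphan receptor gene Brs3 by 1.54 and Ppp1r17, a phosphatase inhibitor, by 1.45. Npvf, the precursor of RFamide peptides, was the lower one, at 1.39, 2.97, 0.895 and 2.09 CPM in beads against 3.002, 3.17, 4.86 and 3.07 CPM in depleted RNA (log2 fold change -0.98, SE 0.327, adjusted p = 0.026). Without leptin lysate 1 it did not pass (adjusted p = 0.0737).

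Ventromedial genes were higher in 6 of 8 cases and lower in 1, with a median of 1.56. Nr5a1, the factor that defines the nucleus, was at 59.8, 56.7, 83.8 and 49.2 CPM in beads against 8.39, 7.49, 10.4 and 6.69 CPM in depleted RNA (log2 fold change 2.91, SE 0.0685, adjusted p = 1.44e-08). Nr0b1, its partner nuclear receptor, rose by 2.65 and Adcyap1, which codes for the peptide PACAP, by 2.13 at 246, 255, 254 and 227 CPM in beads against 56.4, 52.4, 68.7 and 48.7 CPM in depleted RNA. Fezf1 (1.605), Sox14 (1.51) and the neurotrophin gene Bdnf (1.18) followed. Nkx2-2, a factor of a wider region, was lower (log2 fold change -0.47, SE 0.183, adjusted p = 0.0446). Its call was lost without leptin lysate 1, leptin lysate 2 or the vehicle lysate (adjusted p = 0.1596, 0.165 and 0.0783).

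Of 6 premammillary genes 5 were higher and 1 lower, with a median of 1.62. Tac1, the substance P precursor, was at 390.2, 354, 391 and 332 CPM in beads against 51.5, 53.1, 56.8 and 86.5 CPM in depleted RNA (log2 fold change 2.59, SE 0.164, adjusted p = 1.05e-05). The dopamine transporter gene Slc6a3 was at 156, 97.9, 130.5 and 245 CPM in beads against 31.5, 21.4, 25.9 and 34.9 CPM in depleted RNA (log2 fold change 2.42, SE 0.0985, adjusted p = 2.66e-07), and Ddc, an enzyme of dopamine synthesis, at 464, 245, 299 and 323 CPM in beads against 87.8, 61.8, 73.99 and 58.9 CPM in depleted RNA (log2 fold change 2.21, SE 0.0896, adjusted p = 2.45e-07). Each bead library lay above every depleted one for these 3 genes. Foxb1, a factor of the mammillary region, was lower (log2 fold change -0.44, SE 0.119, adjusted p = 0.00848), but did not pass without leptin lysate 1 (adjusted p = 0.0572). Of the lateral hypothalamic peptide list 6 of 8 genes were higher and 1 lower, with a median of 1.34. Nts, which codes for neurotensin, was at 168, 207, 184 and 186 CPM in beads against 16.00, 20.5, 19.1 and 23.7 CPM in depleted RNA (log2 fold change 3.24, SE 0.0789, adjusted p = 1.55e-08). Crh, the corticotropin-releasing hormone gene, rose by 2.09, the protease gene Ecel1 by 1.62, Vgf, a granule protein gene, by 1.54, Sst by 1.15 and Pnoc, the nociceptin precursor, by 0.41. Vgf was at 239, 331, 687 and 321 CPM in beads, highest in leptin lysate 3. Cck was lower (log2 fold change -0.42, SE 0.0920, adjusted p = 0.00277).

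Genes of kisspeptin neurons gave 4 higher and 1 lower of 6 tested, with a median of 0.52. Pdyn, the dynorphin precursor, was at 103, 122, 128 and 125 CPM in beads against 20.2, 25.3, 27.7 and 46.6 CPM in depleted RNA (log2 fold change 2.06, SE 0.152, adjusted p = 1.37e-05), Tac2, the neurokinin B precursor, at 48.2, 80.98, 38.8 and 26.5 CPM in beads against 20.5, 25.6, 24.5 and 21.6 CPM in depleted RNA (log2 fold change 0.97, SE 0.221, adjusted p = 0.00775), and the oestrogen receptor gene Esr1 rose by 0.83. The call of Tac2 was lost without leptin lysate 3 (adjusted p = 0.0868) and without the filter (0.0952). The prolactin receptor gene Prlr was lower (-0.44). Kiss1 itself was listed at 0 in all 8 libraries, and its gene model overlaps Gm28040 and Golt1a on the same strand, so its level is uncertain.

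Of 31 peptide and hormone receptor genes 18 were higher and 6 lower, with a median of 0.51. The melanocortin receptor gene Mc3r was at 21.6, 26.2, 27.1 and 22.5 CPM in beads against 3.55, 3.28, 3.899 and 3.77 CPM in depleted RNA (log2 fold change 2.75, SE 0.102, adjusted p = 1.85e-07), and Mc4r rose by 0.82. Npy2r, a receptor of NPY and PYY, was at 59.97, 70.7, 65.1 and 76.4 CPM in beads against 11.97, 13.1, 14.6 and 15.3 CPM in depleted RNA (log2 fold change 2.31, SE 0.0694, adjusted p = 5.46e-08), and Npy5r rose by 1.46. Calcr, the receptor of calcitonin and, with its partners, of amylin, was at 51.7, 65.8, 63.4 and 74.5 CPM in beads against 12.1, 13.1, 15.8 and 13.2 CPM in depleted RNA (log2 fold change 2.23, SE 0.0895, adjusted p = 2.20e-07). Ghr, the growth hormone receptor gene, rose by 1.43, the orexin receptor genes Hcrtr2 and Hcrtr1 by 1.23 and 0.85, the neurotensin receptor gene Ntsr1 by 1.22 and Crhr2 by 1.14. The insulin receptor gene Insr went the other way, at 15.1, 21.8, 18.2 and 28.3 CPM in beads against 46.3, 50.9, 45.5 and 54.7 CPM in depleted RNA (log2 fold change -1.27, SE 0.0997, adjusted p = 3.77e-06). Its relative Igf1r (-1.05) and the opioid receptor gene Oprm1 (-1.19) were lower too. Ntsr2, a neurotensin receptor of astrocytes, was at 11.4, 13.98, 17.2 and 24.9 CPM in beads against 73.9, 76.01, 84.2 and 84.4 CPM in depleted RNA (log2 fold change -2.28, SE 0.139, adjusted p = 2.98e-06).

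Of 14 transmitter genes tested 4 were higher and 5 lower, with a median of 0.06, and without leptin lysate 1 or 2 only 2 were higher. Catecholamine genes were among the 4. Th, the rate-limiting enzyme of dopamine synthesis, was at 498, 238, 356 and 333 CPM in beads against 95.4, 68.5, 85.8 and 68.7 CPM in depleted RNA (log2 fold change 2.13, SE 0.0921, adjusted p = 3.46e-07), and the vesicular transporter gene Slc18a2 rose by 1.698. Slc17a7, a glutamate transporter gene that is low in the hypothalamus, was at 10.2, 18.2, 26.2 and 31.2 CPM in beads against 47.5, 67.97, 63.97 and 74.1 CPM in depleted RNA (log2 fold change -1.65, SE 0.165, adjusted p = 7.10e-05). Slc5a7 (-1.796) and Chat (-0.85), of cholinergic neurons, were lower too. Slc32a1, the vesicular GABA transporter gene, did not pass, with 70.7 to 125 CPM in beads and 65.7 to 106 CPM in depleted RNA.

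Peptide hormones are folded in the endoplasmic reticulum (ER) and cut and stored in dense-core granules. Of 22 genes of ER translocation and chaperones 21 were higher in beads and none lower, with a median of 0.88. Sec61b, of the translocation pore, was at 42.96, 41.6, 45.4 and 31.7 CPM in beads against 16.5, 15.1, 14.7 and 13.3 CPM in depleted RNA (log2 fold change 1.43, SE 0.0785, adjusted p = 6.79e-07). Spcs1, of the signal peptidase, rose by 1.28, the chaperone gene Hspa5 by 1.12 and Xbp1, the factor of the unfolded protein response, by 1.07. Of 16 genes of peptide processing and granules 11 were higher and 1 lower, with a median of 0.82. Scg2, a granin, was at 693, 930.3, 872 and 1072 CPM in beads against 255, 329, 374 and 376 CPM in depleted RNA (log2 fold change 1.42, SE 0.0618, adjusted p = 2.81e-07). The prohormone convertase gene Pcsk1 was at 58.9, 67.7, 68.5 and 80.2 CPM in beads against 22.8, 27.7, 30.3 and 27.9 CPM in depleted RNA (log2 fold change 1.34, SE 0.0702, adjusted p = 5.68e-07), and the amidating enzymes' genes Pam and Qpct rose by 1.26 and 1.29. Cadps, a factor of granule release, was lower (-0.19; adjusted p = 0.0957 without leptin lysate 1), and 4 genes of the list were lower with scaling to library totals. Pcsk1n, the proSAAS gene, did not pass: it was at 700.2, 848, 2511 and 910.4 CPM in beads against 622, 603, 594 and 599 CPM in depleted RNA, with the bead value of leptin lysate 3 far above the rest.

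Genes reported elsewhere to respond to leptin were chosen with earlier results of these data known. Since 3 of 4 lysates came from leptin-treated mice, their enrichment can restate the leptin effect. Of 18 such genes 15 were higher in beads and 1 lower, with a median of 1.90. Timp1 (ENSMUSG00000001131; chromosome X, 20870166 to 20874735) was at 6.89, 7.77, 11.7 and 2.31 CPM in beads against 0.205, 0.220, 0.583 and 0.181 CPM in depleted RNA (log2 fold change 4.55, SE 0.226, adjusted p = 4.68e-07). It lies inside Syn1 on the other strand, and Syn1 was at 504 to 693 CPM in beads and 454 to 511 CPM in depleted RNA. Atf3, a stress-induced factor, was at 10.3, 12.6, 14.5 and 2.75 CPM in beads against 1.16, 1.21, 1.01 and 0.723 CPM in depleted RNA (log2 fold change 3.21, SE 0.250, adjusted p = 5.17e-06). Serpina3n, the most abundant of the serpin cluster, was at 269.9, 347, 386 and 238 CPM in beads against 19.9, 17.1, 26.4 and 17.8 CPM in depleted RNA (log2 fold change 3.93, SE 0.104, adjusted p = 4.79e-08), and Serpina3i at 6.36, 5.67, 5.13 and 3.45 CPM in beads against 0.273, 0.193, 0.359 and 0.271 CPM in depleted RNA (log2 fold change 4.18, SE 0.230, adjusted p = 6.85e-07). For these 4 genes the lowest bead value was that of the vehicle lysate, and it still lay above all depleted libraries. Serpina3c was at 1.11, 1.19, 1.32 and 0.870 CPM in beads and 0, 0.0551, 0.134 and 0.0301 CPM in depleted RNA, too few reads in the latter for a fold. Traf3ip3 (2.88), Vwa5a (1.96), Bcl3 (1.69), Irf9 (1.61) and Gadd45a (1.07) rose, and Arid5a, an RNA-binding factor, was lower (log2 fold change -0.59, SE 0.0892, adjusted p = 0.000268; adjusted p = 0.223 in the fit of all 28 libraries).

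The ratio of bead to depleted CPM, with 0.5 CPM added to each, was lowest in the vehicle lysate for all 18 of these genes. Over all genes tested it was lowest there for 22.5%, and among the 1017 genes at least 2-fold higher in beads for 37.5%. Of the 18 genes, 14 were at least 2-fold higher. The median log2 ratio of the 1017 genes was 1.04 in the vehicle lysate and 1.12 to 1.14 in the leptin lysates. For Timp1 the log2 ratios were 3.39, 3.52, 3.49 and 2.05, and for Atf3 2.71, 2.94, 3.32 and 1.41. For Socs3 they were 2.39, 2.41, 3.05 and 1.53, so the vehicle ratio was below the others and above 0. Pomc (5.15, 5.51, 5.67 and 5.47) and Agrp (5.18, 5.29, 5.05 and 5.62) had no such gap. Npy (5.10, 4.94, 4.98 and 4.73) and Cartpt (3.71, 3.75, 3.84 and 3.34) also had their lowest ratio in the vehicle lysate. The order comes from 1 vehicle lysate, and has no test.

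**Figure D3:**
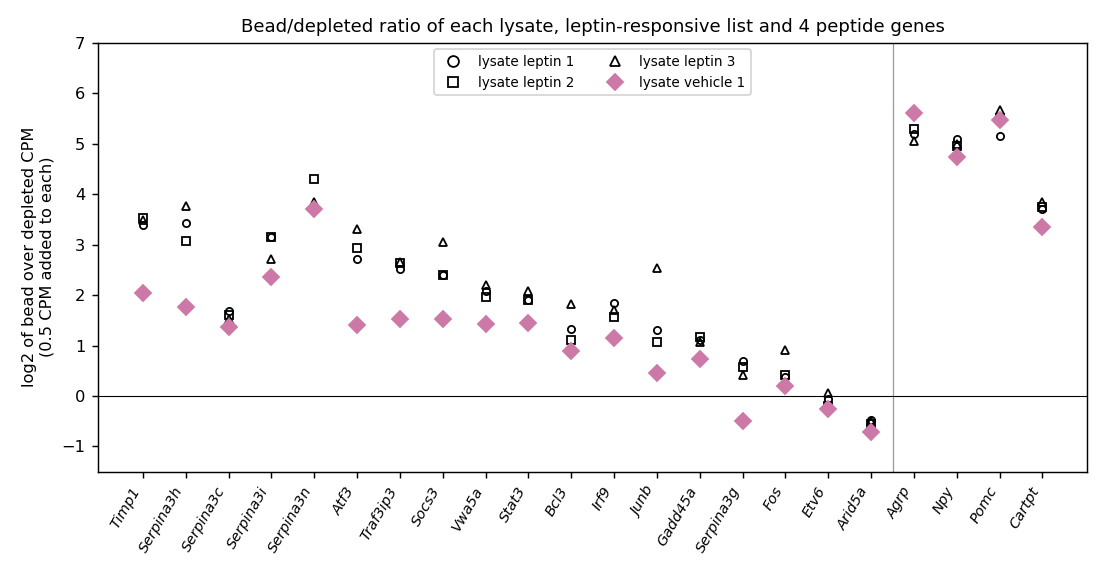
Log2 ratio of bead to depleted CPM (0.5 CPM added to each) in each of the 4 lysates, for 18 genes of the leptin-responsive list, left, and 4 peptide genes, right. The filled diamond, the vehicle lysate, is the lowest point for each of the 18 genes and for Npy and Cartpt, but not for Agrp or Pomc.

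STAT proteins bind TTCNNNGAA, and Serpina3i is shown as a serpin gene of this list (ENSMUSG00000079014; chromosome 12, 104263122 to 104269372) whose promoter holds these letters, in capitals. The motif reads alike on either strand. The window is chr12:104262872-104263121 (+), of the same build.
Serpina3i: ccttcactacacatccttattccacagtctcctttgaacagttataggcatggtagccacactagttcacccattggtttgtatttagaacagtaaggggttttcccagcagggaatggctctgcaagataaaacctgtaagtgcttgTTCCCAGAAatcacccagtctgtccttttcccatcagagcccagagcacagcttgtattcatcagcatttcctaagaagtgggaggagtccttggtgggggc
The first base of the motif is at -102 from the start. Over the 32851 promoters 7.02% hold the motif. Of the 15 largest-rise genes with a promoter 2 do, a count per gene and so unlike the share per promoter. These are Serpina3i and Serpina3f, paralogs of 1 cluster. The windows of Serpina3n and Timp1 do not hold the motif.

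Glial genes were lower in beads. All 12 astrocyte markers (median -1.75), all 12 oligodendrocyte markers (-1.97) and all 12 microglial markers (-2.08) were lower, and 5 of 6 of oligodendrocyte precursors. The summed level of the astrocyte list was 783 to 1049 CPM in beads and 1796 to 2059 CPM in depleted RNA. That of the oligodendrocyte list was 1110 to 2110 CPM and 5057 to 6082 CPM, and that of the microglial list 25.1 to 54.0 CPM and 90.2 to 139 CPM. Beads thus still held glial RNA. Mbp, of myelin, was at 347, 375, 424 and 506 CPM in beads against 1488, 1518, 1512 and 1504 CPM in depleted RNA (log2 fold change -1.88, SE 0.0844, adjusted p = 3.65e-07). Aqp4, the water channel of astrocyte endfeet, was at 6.39, 10.5, 7.66 and 14.3 CPM in beads against 32.4, 38.3, 38.9 and 47.2 CPM in depleted RNA (log2 fold change -2.06, SE 0.116, adjusted p = 7.84e-07), and Gfap, their filament protein, at 26.6, 38.3, 35.00 and 33.5 CPM in beads against 123, 130.02, 132 and 117 CPM in depleted RNA (log2 fold change -1.92, SE 0.0794, adjusted p = 2.42e-07). Aldoc, an enzyme of glycolysis, was the least depleted astrocyte marker (-0.603). Csf1r, the growth factor receptor of microglia, was at 1.89, 2.83, 3.42 and 5.49 CPM in beads against 12.04, 16.1, 15.5 and 21.5 CPM in depleted RNA (log2 fold change -2.30, SE 0.131, adjusted p = 7.74e-07). For 30 of these 36 astrocyte, oligodendrocyte and microglial markers the bead-to-depleted ratio was highest in the vehicle lysate, which also held the most mitochondrial reads; over all genes tested the share was 28.8%. Of the 3328 genes at least 2-fold lower, 1767 had their highest ratio there. Without the vehicle lysate all 12 markers of each of the 3 glial types were still lower, as were the 7 mitochondrial genes given below. The part of such reads in other results was not tested.

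Other cell types moved less evenly. Endothelial and mural genes gave 7 lower and 1 higher of 12, with a median of -0.82, and the 1 higher gene was lost without leptin lysate 2 or 3, with DESeq2 and with library totals. Rgs5, of pericytes, was at 7.22, 9.19, 9.76 and 13.2 CPM in beads against 34.4, 31.9, 34.2 and 33.5 CPM in depleted RNA (log2 fold change -1.79, SE 0.131, adjusted p = 3.19e-06). Cldn5, of the tight junctions of the blood-brain barrier, did not pass, at 0.782, 1.78, 3.15 and 1.12 CPM in beads against 1.57, 1.71, 1.95 and 1.99 CPM in depleted RNA. Of 8 tanycyte genes 7 were lower and 1 higher. Dio2, which activates thyroid hormone, was at 4.04, 3.88, 3.85 and 4.16 CPM in beads against 14.2, 11.1, 13.5 and 13.9 CPM in depleted RNA (log2 fold change -1.72, SE 0.103, adjusted p = 9.69e-07), and the exception was the filament gene Vim, at 52.4, 42.8, 50.99 and 39.5 CPM in beads against 23.6, 25.1, 25.7 and 24.5 CPM in depleted RNA (log2 fold change 0.90, SE 0.0842, adjusted p = 1.08e-05). All 5 erythrocyte genes were lower, with Hbb-bs at -1.71, as were 4 of 5 tested ependymal genes, with Foxj1 at -1.91, and 3 of 4 of the choroid plexus. Of 6 pituitary genes 5 were lower and 1 was higher. Without leptin lysate 1 or the vehicle lysate 3 of the 6 were lower. The hormone genes Gh and Prl were at 0 to 0.381 and 0 to 0.734 CPM in beads.

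Pan-neuronal genes differed among themselves, with 7 of 12 higher, 3 lower and a median of 0.23. Gap43 (1.02), Uchl1 (0.995) and Tubb3 (0.79) were higher, while Map2, whose mRNA is carried into dendrites, was at 326, 408, 344 and 498 CPM in beads against 823, 918, 861 and 893 CPM in depleted RNA (log2 fold change -1.17, SE 0.0816, adjusted p = 2.07e-06) and the neurofilament gene Nefm at -0.59. A list for hypothalamic neurons mostly without LepRb held peptide genes, an enzyme gene and transcription factors. Of its 12 genes 7 were lower and 4 higher. Pmch, which codes for melanin-concentrating hormone, was at 16.8, 14.5, 15.4 and 33.9 CPM in beads against 84.9, 84.1, 105 and 107 CPM in depleted RNA (log2 fold change -2.30, SE 0.174, adjusted p = 2.31e-05), and Hcrt, which codes for orexin, at 13.6, 14.1, 24.3 and 23.6 CPM in beads against 59.8, 64.6, 75.2 and 72.01 CPM in depleted RNA (log2 fold change -1.88, SE 0.110, adjusted p = 1.16e-06). Avp (-1.99), Oxt (-2.28) and Hdc, the histamine enzyme gene (-2.01), were lower, as was Sim1 (-1.18), a factor of the paraventricular nucleus. Otp, a homeobox factor that the list held as one of the same neurons, was instead at 208, 197, 359.6 and 160.2 CPM in beads against 48.7, 44.2, 52.1 and 39.5 CPM in depleted RNA (log2 fold change 2.27, SE 0.124, adjusted p = 1.78e-06). Otp is also made in arcuate AgRP neurons. Six6 (2.02), Nms (1.89) and Vip (0.57), of the suprachiasmatic region, were higher too.

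**Figure D4:**
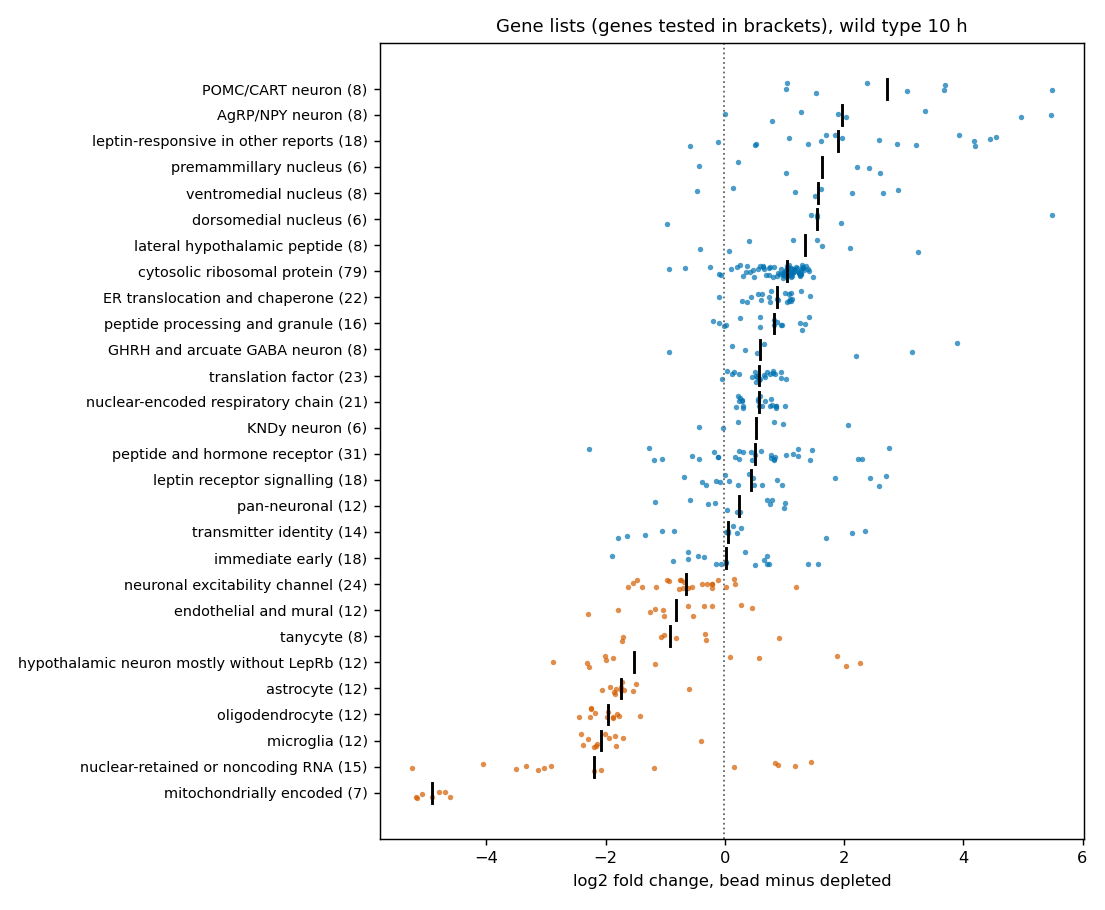
Log2 fold change of bead over depleted RNA for the tested members of 28 gene lists (points), with the list median as a black bar and the number of genes tested in brackets. Lists with a median above 0 are blue and those below 0 orange; the order runs from POMC/CART neuron genes (2.72) to mitochondrially encoded genes (-4.90).

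The 15 largest falls were 10 genes of the mitochondrial chromosome and 5 nuclear genes. All 7 tested mitochondrial coding genes were lower, with a median of -4.90. mt-Cytb was at 25.9, 36.3, 39.4 and 216 CPM in beads against 1694, 1816, 2003 and 2148 CPM in depleted RNA (log2 fold change -5.19, SE 0.682, adjusted p = 0.00465), and mt-Co1 at 44.95, 53.97, 53.9 and 248 CPM in beads against 1823, 1945, 2194 and 2323 CPM in depleted RNA (log2 fold change -4.79, SE 0.556, adjusted p = 0.00319). These mRNAs are translated by mitochondrial ribosomes, which carry no L10a. The vehicle beads stood above the leptin beads for all 7, and the log2 ratios of mt-Cytb were -6.00, -5.62, -5.65 and -3.31. The ribosomal RNA mt-Rnr2 (-4.47) and the transfer RNA mt-Tp (-4.41) fell alongside, as did mt-Nd1 (-4.604), mt-Nd2 (-5.16), mt-Nd4 (-5.08), mt-Nd5 (-4.69) and mt-Nd6 (-4.905). The transfer RNA mt-Ta was at 0.151, 0, 0 and 0.354 CPM in beads, too few reads for a fold. Another 5 mitochondrial coding genes, among them mt-Co2, were listed at 0 in every library, which makes the counting of this chromosome uncertain. By contrast all 21 nuclear genes of the respiratory chain were higher in beads, with a median of 0.56, and 13 of them were with scaling to library totals. A median of this size was also that of short coding genes: 0.66 with up to 1 kb of exon and 0.46 with 1 to 2 kb. Of those classes 56.4% and 55.8% were higher. The part of exon length in this list was not tested. Ndufa4 was at 696, 652, 501 and 528 CPM in beads against 320.4, 283, 299.6 and 272 CPM in depleted RNA (log2 fold change 1.01, SE 0.0756, adjusted p = 2.96e-06).

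Of 15 nuclear-retained or other noncoding RNAs 10 were lower, each at least 2-fold, and 4 higher, with a median of -2.19. Meg3, an imprinted nuclear RNA, was at 192, 206, 235 and 569.7 CPM in beads against 4302, 4645, 4434 and 4501 CPM in depleted RNA (log2 fold change -4.06, SE 0.358, adjusted p = 0.000897). Bc1, a small cytoplasmic RNA of neurons that represses translation, was at 3.28, 3.06, 2.61 and 13.1 CPM in beads against 291, 195, 186 and 113 CPM in depleted RNA (log2 fold change -5.24, SE 0.811, adjusted p = 0.00756). Without leptin lysate 3 its adjusted p was 0.0501. Miat (-3.51), Neat1 (-3.33) and Malat1 (-3.14), RNAs of nuclear bodies, fell by similar amounts. Those higher were hosts of small nucleolar RNAs: Snhg12 (1.45), Snhg1 (1.17), Gas5 (0.897) and Snhg8 (0.84). The list also held the hosts Snhg11 and Snhg14, which were not among those higher, so such hosts did not all rise. The bead-to-depleted ratio was highest in the vehicle lysate for 12 of the 15 RNAs. That share was 28.8% over all genes tested and 53.1% among the genes at least 2-fold lower in beads. The remaining nuclear falls lie within larger genes: Srrm4os (0, 0.0914, 0 and 0.109 CPM in beads, 2.08, 2.56, 2.02 and 1.99 CPM in depleted RNA) and Gm42853 within Srrm4, Gm38372 within Pcmtd1 and Gm43272 within Cds1, each below 0.2 CPM in every bead library. By annotation class, 64.2% of 500 genes whose existence awaits experiment and 45.1% of 760 lincRNAs were lower in beads, against 34.9% of 15137 coding genes.

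Genes of the translation machinery were higher in beads. Of 79 cytosolic ribosomal protein genes 70 were higher and 1 lower, with a median of 1.04, and 67 had all bead libraries above all depleted ones. Rplp2, of the ribosomal stalk, was at 213, 188, 208 and 173 CPM in beads against 77.1, 70.2, 69.3 and 64.8 CPM in depleted RNA (log2 fold change 1.47, SE 0.0552, adjusted p = 1.88e-07). The exception Rpl5 was at 1.72, 1.14, 2.68 and 1.58 CPM in beads against 3.17, 3.83, 3.07 and 3.405 CPM in depleted RNA; like Rpl24 and Rps10 it is counted at a few CPM, far under its relatives, and these genes share reads with many pseudogenes. The tag is on L10a, and Rpl10a was at 5.301 to 12.6 CPM in beads and 7.04 to 8.07 CPM in depleted RNA, which did not pass. Of 23 translation factors 19 were higher and none lower, led by Eef1b2 at 490.3, 429, 375 and 438 CPM in beads against 223, 211, 214 and 198 CPM in depleted RNA (log2 fold change 1.03, SE 0.0656, adjusted p = 1.25e-06).

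Shorter genes had higher fold changes. Over coding genes with up to 1 kb of exon the median was 0.66, for 1 to 2 kb it was 0.46, for 2 to 4 kb 0.23, for 4 to 8 kb -0.02 and over 8 kb -0.40. Of the 319 shortest genes 56.4% were higher in beads, and of the 2688 longest 17.1%. The 4 lysates gave nearly the same slope with length, but not with GC content. In leptin lysate 3 the median log2 ratio went from -0.27 for genes of up to 40% GC to 0.49 above 60%, whereas in the other 3 lysates all medians lay between -0.07 and 0.07. The part of length and GC in the results on single genes was not tested.

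**Figure D5:**
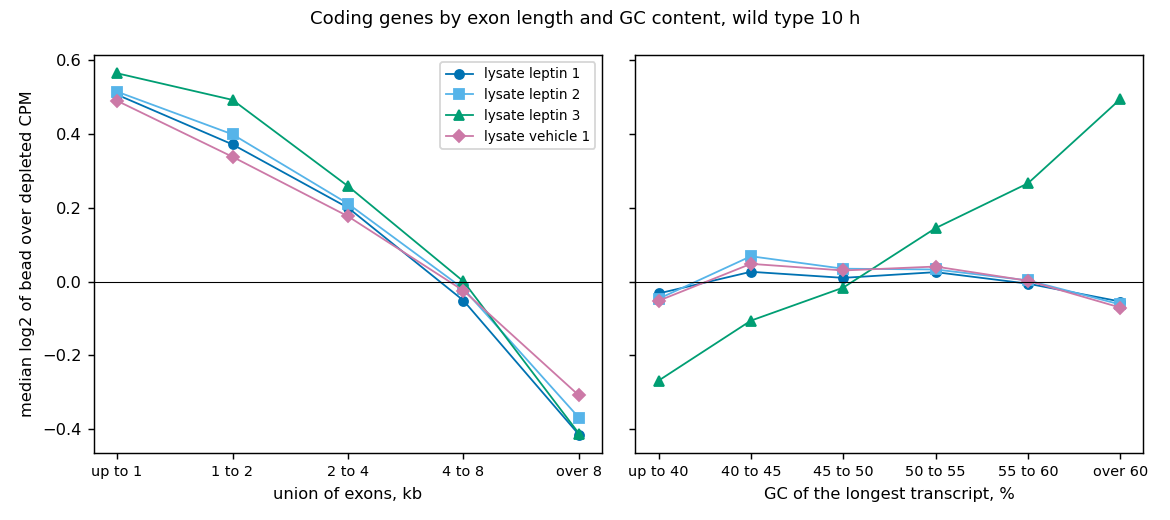
Median log2 ratio of bead to depleted CPM of coding genes by length of exon in kb (left) and by GC of the longest transcript in percent (right), 1 line for each of the 4 lysates. All lines fall with length, and only that of leptin lysate 3 rises with GC, from -0.27 to 0.49.

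Ion channel genes, most of them long, were mainly lower: 18 of 24 were lower and 1 higher, with a median of -0.65. Of the 2688 coding genes with over 8 kb of exon 61.2% were lower, with a median of -0.40. Kcna1, a potassium channel gene, was at 8.96, 10.4, 6.92 and 17.5 CPM in beads against 29.9, 29.8, 30.9 and 39.8 CPM in depleted RNA (log2 fold change -1.63, SE 0.139, adjusted p = 9.30e-06), and the sodium channel genes Scn1a (-1.48) and Scn8a (-1.39) and the calcium channel gene Cacna1g (-1.54) were lower by like amounts. Trpc4, a cation channel gene, was the exception, at 16.8, 20.9, 19.5 and 21.2 CPM in beads against 6.99, 8.92, 7.73 and 10.9 CPM in depleted RNA (log2 fold change 1.19, SE 0.0923, adjusted p = 3.42e-06). Of 18 immediate early genes, induced by activity, 6 were higher and 5 lower, with a median of 0.02. Nr4a2, a nuclear receptor of dopamine neurons, was at 69.8, 50.6, 59.2 and 48.2 CPM in beads against 20.1, 22.8, 19.9 and 14.7 CPM in depleted RNA (log2 fold change 1.56, SE 0.103, adjusted p = 1.55e-06), and Fos at 26.2, 25.8, 58.8 and 7.56 CPM in beads against 20.03, 19.3, 30.9 and 6.57 CPM in depleted RNA (log2 fold change 0.51, SE 0.112, adjusted p = 0.00266). Npas4 (-1.89) and Arc (-0.87), which neurons induce upon firing, were lower. Junb was at 43.1, 40.9, 126 and 20.3 CPM in beads against 17.2, 19.2, 21.2 and 14.6 CPM in depleted RNA (log2 fold change 1.39, SE 0.388, adjusted p = 0.0319), highest in the beads of leptin lysate 3. The bead-to-depleted ratio was highest in that lysate for 16 of the 18 genes of this list, against 34.1% of all genes tested. Its beads are those in which GC-rich transcripts were over-represented, and the part of GC content here was not tested. Junb did not pass without leptin lysate 1 (adjusted p = 0.0742), without leptin lysate 2 (0.0668) or without the filter (0.103), nor did Fos without the lysate term (0.126). With scaling to library totals 8 of the 18 were lower.

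The enrichment at 10 h was set against that in wild-type mice at 3 h (7 lysates, 3 of them leptin) as a difference of log2 fold changes in a fit of all 28 libraries. Time and sequencing run cannot be told apart in it, and the sources do not give the sex of the mice of each 10 h lysate, so a different mix of sexes cannot be told apart from them either. Of 19682 genes 85 (0.432%) differed at an adjusted p of 0.05, 84 of them (0.427% of all) with a lower value at 10 h and 1 (0.00508%) with a higher one, and 4663 had an unadjusted p under 0.05. The count was 0 without leptin lysate 1 and without leptin lysate 2, 10 without leptin lysate 3 and 8 without the vehicle lysate. The share of leptin lysates differs between the strata, and with a bead-by-leptin term in the fit 2 genes passed. Xist, the RNA of the inactive X chromosome, had the largest difference among the called genes with a mean of at least 1 CPM (-3.35 ± 0.510, adjusted p = 0.0329), with per-lysate ratios of -1.01 to 1.21 at 10 h and -0.27 to 4.09 at 3 h. The other large ones above that level were D030047H15Rik (-3.10), Mir5125 (-2.69), Grin1os (-2.40) and Gm28192 (-2.10), which are noncoding, Cyp4f15 (-2.30), a cytochrome, Col4a5 (-2.42), a collagen of vessel walls, and Tek (-2.10), the angiopoietin receptor of endothelium. Tek was 1 of 3 endothelial and mural genes that differed, with Vtn and Kdr, and the median difference of these 12 genes was -1.14, against 0.00 over all genes. The astrocyte median was -1.01 and that of microglia -0.57, and no gene of either list passed. Only Atp5g1, of the ATP synthase, had a higher value at 10 h (0.42 ± 0.0883, adjusted p = 0.0484). Lepr was enriched by 2.45 at 10 h and 2.37 at 3 h, and the difference (0.07 ± 0.188, adjusted p = 0.849) did not pass, nor did that of any gene of the neuron type lists.

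Against the ob/ob mice of the study (LepRbeGFP-L10a;Lepob/ob), which make no leptin, at 10 h (3 lysates, 1 of them leptin) 28 genes (0.142%) differed, 22 (0.112%) with a higher value in wild type and 6 (0.0305%) with a lower one, and 2387 had an unadjusted p under 0.05. Genotype and sequencing run cannot be told apart, the share of leptin lysates differs as well, and the count was 6, 9 and 12 without leptin lysate 1, 2 and 3 and 48 without the vehicle lysate. Cartpt was at 659 CPM in beads and 50.96 CPM in depleted RNA at 10 h in wild type, against 189 and 49.3 CPM in ob/ob mice. Its bead level was lower in ob/ob mice while its depleted level was close, and the difference of enrichment was 1.86 ± 0.300, adjusted p = 0.0282. Nts was at 188 CPM in beads and 19.7 CPM in depleted RNA at 10 h in wild type, against 56.4 and 16.5 CPM in ob/ob mice (1.48 ± 0.186, adjusted p = 0.00275). The call of Cartpt was lost without leptin lysate 1, 2 or 3 (adjusted p = 0.0988, 0.102 and 0.115), and that of Nts was kept without any 1 of the 4 lysates. Per-lysate ratios did not overlap for either gene, at 3.35 to 3.85 against 1.08 to 2.34 for Cartpt and 2.96 to 3.39 against 1.48 to 1.93 for Nts. Of the 14 genes named here by size of difference, with a mean of at least 1 CPM, 10 did not pass with a bead-by-leptin term, and 12, 12 and 10 did not without leptin lysate 1, 2 and 3. The others with a large higher value were Tnfrsf11b (2.00), the decoy receptor osteoprotegerin, Cd44 (1.46), a receptor of hyaluronan, Anxa2 (1.40), an annexin, the chemokine gene Cxcl12 (1.29), the membrane protein gene Tmem176a (1.27) and the matrix gene Tgfbi (1.21). The POMC/CART factor Prdm12 (1.17) and Glp1r (1.04) were also among the 22. Lower values were those of the trophic factor gene Gdnf (-1.88), the zinc transporter gene Slc39a2 (-1.25), the NF-kappaB regulator Nfkbiz (-1.19), the sperm protein gene Spaca6 (-1.07), the kinase anchor gene Akain1 (-0.81) and Fam107a (-0.64), an actin regulator.

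Enrichment of the other peptide genes did not pass a difference from ob/ob mice. Pomc was at 946 CPM in beads and 20.7 CPM in depleted RNA at 10 h in wild type, against 113 and 20.5 CPM in ob/ob mice, a difference of 2.60 ± 1.01, adjusted p = 0.377. Agrp was at 150.2 CPM in beads and 3.34 CPM in depleted RNA at 10 h in wild type, against 649 and 13.7 CPM, higher in both fractions of ob/ob mice, and its enrichment was 5.49 in wild type and 5.57 in ob/ob (-0.08 ± 0.310, adjusted p = 0.924). Npy was at 601 CPM in beads and 18.9 CPM in depleted RNA at 10 h in wild type, against 1879 and 49.6 CPM (-0.25 ± 0.361, adjusted p = 0.784). Lepr was enriched by 2.45 in wild type and 1.83 in ob/ob (0.62 ± 0.229, adjusted p = 0.348), and Stat3 by 1.86 and 0.81 (1.05 ± 0.288, adjusted p = 0.272). The leptin-responsive list had a median difference of 1.17, with no gene past the threshold. A p that misses the threshold does not show that the strata are alike.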

How the data were processed

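Members and gene lists were chosen with earlier results of these data known. Poly(A) RNA of integrity number 8 or more was made into unstranded TruSeq v2 libraries and read in 50 cycles from 1 end, 4 libraries per lane, per the labels' protocols. STAR 2.7.6a and GRCm38.p6 are named in the submitters' processing notes. The authors deposited whole-number counts per gene, not normalized, and the counting step is not named in the sources used here. Of 55487 gene identifiers 55227 matched GENCODE M21, which gave names, positions and exon lengths; promoters came from RefSeq.

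Genes that reached 10 counts in 3 libraries or more were tested with edgeR 4.0.16 (R 4.3.3; TMM scaling, robust quasi-likelihood F test, Benjamini-Hochberg adjustment) with fraction and lysate as terms, which left 3 residual degrees of freedom. The labels pair bead and depleted libraries of a lysate. Deviations of the leptin libraries from their group means correlated at 0.258, 0.222 and 0.0979 within lysates 1, 2 and 3, each the highest for that lysate. Differences from 3 h and from ob/ob mice were contrasts in a fit of all 28 libraries with 11 residual degrees of freedom. An exact permutation test over 4 pairs cannot go below p = 0.125 (two-sided). Among the leptin libraries of each fraction no pair was a duplicate, by a chi-square test of counts. The fits were also run on simulated counts, in which far fewer genes were changed than passed here. That setting differs from these data, and no result above rests on it. Alternatives used DESeq2 1.42.0, limma 3.58.1 (voom), other scalings and filters, no lysate term, and 1 lysate left out.

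Genes named are the 20 largest rises and 15 largest falls with a mean of at least 1 CPM and 1 sign in all lysates, up to 8 differences each way from each other stratum, and, from each list, the defining members and those with the largest and smallest change. Some genes that this rule picks are not reported here.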

Additional observations from a re-analysis of the deposited data

Results flagged for a closer look

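In 185 named genes the bead-to-depleted log2 ratio was screened for 1 lysate far from the other 3 (its gap to the nearest over the whole range, against Dixon's critical value), and 16 genes met this, 11 of them through the vehicle lysate, 1 through leptin lysate 1 and 4 through leptin lysate 3. Chance would pick out about 1 in 20 of genes that vary independently. These genes were picked by size of change and by lists, and most flags come from 1 lysate. The count therefore cannot show an excess. The vehicle ratio stood above the others for RNAs that are low in beads: -3.25 for mt-Nd2, -3.22 for mt-Co1, -3.32 for mt-Nd6, -3.31 for mt-Cytb, -3.06 for Bc1 and -2.98 for Meg3, where the leptin lysates ranged from -6.27 (Bc1) to -4.24 (Meg3), and -2.03 for Srrm4os. It stood below them for Timp1 (2.05, others 3.39 to 3.52), Traf3ip3 (1.53, others 2.52 to 2.65), Pdyn (1.42, others 2.19 to 2.32) and Nms (1.02, others 1.62 to 1.68). Leptin lysate 3 stood above the others for Slc32a1 (0.77), Stat5b (0.72) and Rps10 (0.55) and below for Snhg1 (0.81), and leptin lysate 1 was lowest for Hcrtr2 (1.06).

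Enrichment differed from wild-type mice at 3 h, by the test of the difference itself, for Xist (-3.35), D030047H15Rik (-3.10), Mir5125 (-2.69), Col4a5 (-2.42), Grin1os (-2.40), Cyp4f15 (-2.30), Gm28192 (-2.10), Tek (-2.10) and Atp5g1 (0.42). From ob/ob mice at 10 h it differed for Tnfrsf11b (2.00), Cartpt (1.86), Nts (1.48), Cd44 (1.46), Anxa2 (1.40), Cxcl12 (1.29), Tmem176a (1.27), Tgfbi (1.21), Gdnf (-1.88), Slc39a2 (-1.25), Nfkbiz (-1.19), Spaca6 (-1.07), Akain1 (-0.81) and Fam107a (-0.64). Of these 14, 10 did not pass with a bead-by-leptin term and 12 did not without leptin lysate 1 or without leptin lysate 2. Of the 9 set against 3 h, 8 did not pass with that term and none passed when leptin lysate 1, or leptin lysate 2, was left out. Genes under a mean of 1 CPM are not listed. Sequencing run cannot be told apart from either contrast.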

How the results depend on the processing

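With 4 lysates, 1 of them vehicle, and 3 residual degrees of freedom, small differences are imprecise, and genes of a few CPM rest on few reads. Of 185 named genes tested 177 passed, all of them with 1 sign under every alternative, and 166 kept their call under every one. Leaving out 1 lysate gave between 11102 and 13075 genes past the threshold. Scaling to library totals left 584 genes at least 2-fold higher. With no replicate block, that is without the pairing of fractions by lysate, 12846 genes passed. Genes that did not pass changed sign near 0: Xist was at -0.0476 with library totals and between -0.25 and 0.55 without 1 lysate, Cldn5 between -0.59 and 0.00937 and Rpl10a between -0.45 and 0.0284.

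The difference from 3 h depended on the processing. Against 85 genes (84 lower at 10 h), DESeq2's size factors gave 50 (49 lower), library totals 54 (0 higher, 54 lower), no filter 2062 (286 higher, 1776 lower), DESeq2 1293 (286 higher, 1007 lower), limma voom 5 (0 higher, 5 lower), an added bead-by-leptin term 2 (0 higher, 2 lower), no replicate block 37 (36 lower) and leptin lysates alone 243 (5 higher, 238 lower). Without 1 lysate it was between 0 and 10 genes, 0 of them higher. Of the 85, DESeq2 also called 83. The difference from ob/ob mice, 28 genes (22 higher in wild type, 6 lower), became 17 with library totals (14 and 3), 741 with no filter (168 and 573), 96 with DESeq2 (66 and 30), 20 with limma voom (3 lower), 12 with a bead-by-leptin term (11 and 1) and 16 with no replicate block (1 lower). Without 1 lysate it was between 6 and 48 genes, with 6 to 27 higher and 0 to 21 lower. The cause of these changes was not tested.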
